A study of Mus musculus with 10 samples.

Results

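The 52 genes described here carry proteins between the endoplasmic reticulum (ER) and the Golgi apparatus in pancreatic islets. They were chosen by gene name from the 35214 genes of the gene table, as the subunits of the vesicle coats COPI and COPII, the p24 family, the KDEL receptors, other cargo receptors, the Sec22 SNAREs and the golgins. At least 1 splicing event was measured in 50 of the 52 genes, against 13706 genes in all, and these 50 genes held 751 of the 167895 events. *Lman1l* and *Tmed11* had none.

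RNAseq was performed on islets of male mice of 2 obese strains, one library per mouse. The 5 NZO mice (NZO/HiBomDife) are of a polygenic strain prone to diabetes, and the 5 B6-ob/ob mice (C57BL/6J carrying the *Lep* ob/ob mutation, and so lacking leptin) resist it. Both strains were kept on a high-fat diet free of carbohydrates up to 18 weeks of age and then received a diet with carbohydrates for 2 days. The strain differs in its whole genetic background, so that genetic background and the state of the islet cannot be told apart in any difference below. The gene table was read for its mean normalized count over all 10 libraries, which holds no difference between strains. The splicing table was read for the proportion spliced in (PSI) of each strain, with the mice pooled. No value per mouse was used, so PSI differences carry no replicate error and were not tested, the depth behind each value is unknown, and differences are described by their size only.

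Proteins leave the ER in vesicles formed by the COPII coat. COPI vesicles return escaped ER proteins and recycled receptors from the Golgi, and receptors in the membrane load cargo into both. In β-cells, proinsulin takes this route before it reaches the secretory granules.

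Of all genes, the highest mean normalized counts belonged to the β-cell hormone *Ins2* (6.68e+06), *Ins1* (2.58e+06) and *Iapp* (1.11e+06). The α-cell hormone *Gcg* reached 240204 and *Sst*, the δ-cell hormone, 24410. The 6 acinar marker genes lay between 88.4 and 402, and the ductal markers *Krt19* and *Sox9* at 109 and 30.1. The endothelial markers *Pecam1* (2349) and *Kdr* (5227) and the leukocyte marker *Ptprc* (190) were also measured. Bulk RNA cannot tell a level per cell from the number of cells of a type, and the part of other cell types in the values below was not tested.

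Several of the sequences behind the results are shown first. An event here is a stretch of a gene whose inclusion varies. A cassette exon is included whole or skipped, whereas tandem starts and tandem polyadenylation sites are neighbouring positions at which transcripts begin or end. The first set holds 5 cassette exons whose PSI lay well between 0 and 1 and which were coding along their whole length. Each was read from the GENCODE M21 transcripts (GRCm38), in the 5′ to 3′ direction of the gene. They are the upstream exon of *Golga2* at chr2:32293315-32293395 (+) and its downstream one at chr2:32297754-32297834 (+), the exon of *Golga4* at chr9:118537242-118537325 (+), that of *Sec24b* at chr3:130020538-130020642 (-) and that of *Sec31a* at chr5:100369596-100369634 (-). No base is in capitals in this set. Their lengths are 81, 81, 84, 105 and 39 nt, all divisible by 3.
Golga2 upstream exon: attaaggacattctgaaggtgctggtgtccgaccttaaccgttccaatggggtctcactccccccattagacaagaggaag
Golga2 downstream exon: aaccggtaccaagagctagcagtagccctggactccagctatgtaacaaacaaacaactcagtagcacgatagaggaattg
Golga4 exon: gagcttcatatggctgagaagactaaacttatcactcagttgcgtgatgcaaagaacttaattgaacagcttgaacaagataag
Sec24b exon: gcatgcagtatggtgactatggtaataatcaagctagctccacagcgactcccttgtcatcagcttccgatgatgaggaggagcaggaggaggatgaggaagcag
Sec31a exon: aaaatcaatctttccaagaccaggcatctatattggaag

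A second exon of *Golga4*, of 65 nt, is shown by its first 30 bases, chr9:118579542-118579571 (+). By the annotation, coding sequence takes the first 27 bases of this exon and ends at the stop codon in capitals. The next exon also holds 21 coding bases, so this is the last coding exon of some transcripts only.
Golga4 65-nt exon, first 30 bases: ttcacctcacctcgcagtggcatcttcTGA

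The third set shows regions around a start segment or first exon whose pooled PSI differed between the strains, taken from the RefSeq promoter table (GRCm38.p6). In the *Golga2* region, chr2:32288226-32288355 (+), the capitals mark the 20-base start segment used less in NZO islets. In the *Sec16b* region, chr1:157526047-157526176 (+), the capitals mark the first 30 bases of an alternative first exon used more in NZO islets.
Golga2 start region: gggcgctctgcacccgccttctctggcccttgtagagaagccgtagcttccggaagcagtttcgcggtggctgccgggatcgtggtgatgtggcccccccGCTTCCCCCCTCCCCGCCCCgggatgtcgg
Sec16b first exon region: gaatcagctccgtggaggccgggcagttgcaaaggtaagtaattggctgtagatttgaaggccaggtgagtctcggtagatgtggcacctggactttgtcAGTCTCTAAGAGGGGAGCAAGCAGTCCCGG

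Most of the transport genes were among the abundant transcripts of the islet libraries. Their median mean normalized count was 6305, against 133 over the 22701 genes above 0, and the median member stood at percentile 97.2 of those genes. Of the 52 members, 36 were among the 2271 highest genes and 47 had a mean count of at least 1000. To compare genes with each other, the mean count was divided by the length of the longest protein-coding transcript in kb, and all levels per kb below are on this scale.

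The p24 family, small membrane proteins that select cargo and help form the vesicles, held several of the most abundant members. *Tmed3* was the highest of all 52 genes at 19178 per kb, followed by *Tmed10* (13568 per kb), *Tmed2* (10766 per kb), *Surf4* (9552 per kb) and *Tmed9* (8170 per kb). With merged exons as the length *Surf4* (9552 per kb) stood above *Tmed3* (9067), *Tmed2* (8836) and *Tmed10* (3460), and its mean count (31340) also exceeded that of *Tmed3* (25813), so this order depends on the scale. The family spanned the whole range, since *Tmed1* was at 161 per kb and *Tmed11* at 0.114 per kb, the lowest of the members. *Tmed6*, a relative with a mean count of 1242, reached 1426 per kb.

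Among the other receptors, *Surf4*, which exports soluble secretory proteins from the ER, was the highest, and *Lman1l* the lowest at 1.18 per kb. *Lman1*, the lectin ERGIC-53, was at 5704 per kb and its calcium-binding partner *Mcfd2* at 2775 per kb, a ratio of 2.06. The lectin *Lman2* exceeded its relative *Lman2l* 8.46-fold per kb. The KDEL receptors retrieve ER-resident chaperones from the Golgi. *Kdelr2* (4736 per kb) and *Kdelr1* (4704 per kb) were at about the same level, and *Kdelr3* was at 1123 per kb.

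The COPI coatomer subunits had a median of 3736 per kb. *Cope*, the ε-subunit, was the highest at 7285 per kb, and 7 of the other subunits lay between 2597 (*Copz1*) and 5180 (*Copb2*). Of the γ-subunit paralogs, *Copg1* was 9.22-fold higher than *Copg2* per kb, the lowest subunit at 405 per kb. The ratio of the ζ-subunit paralogs, *Copz1* over *Copz2*, was 0.749 per kb but 1.18 when the length of all exons merged was used, so their order is not set by these data.

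The COPII genes had a lower median of 1398 per kb. *Sar1a*, the GTPase that starts the coat, was the highest at 5652 per kb, 1.51-fold over *Sar1b*. One paralog stood above the other in 2 of the coat layers. *Sec23b*, of the inner layer, was 10.4-fold higher than *Sec23a*, and *Sec31a*, of the outer cage, was 258-fold higher than *Sec31b*, which had a mean count of 48.5 only. Of the cargo adaptors, *Sec24d* (1995 per kb) and *Sec24c* (1408 per kb) lay above *Sec24a* (307 per kb) and *Sec24b* (300.4 per kb). *Sec16a* and *Sec16b*, which organise ER exit sites, were close to each other at 908 and 843 per kb. With merged exons the *Sec23b* to *Sec23a* ratio was 5.40, that of *Sec31a* to *Sec31b* 139 and that of *Copg1* to *Copg2* 4.48, each in the same direction.

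The golgins, grouped here by gene name and mostly coiled-coil tethers of the Golgi surface, ranged from 443 per kb (*Golga1*) to 2115 per kb (*Golga4*). With merged exons *Golga7*, placed here by its name only, was the lowest of this group at 303 per kb, down from 1048, and *Golga1* was at 387. Of the Sec22 SNAREs, *Sec22b*, which acts in fusion between ER and Golgi, was at 2541 per kb, 11.8-fold above *Sec22a* and 13.6-fold above *Sec22c*.

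**Figure D1:**
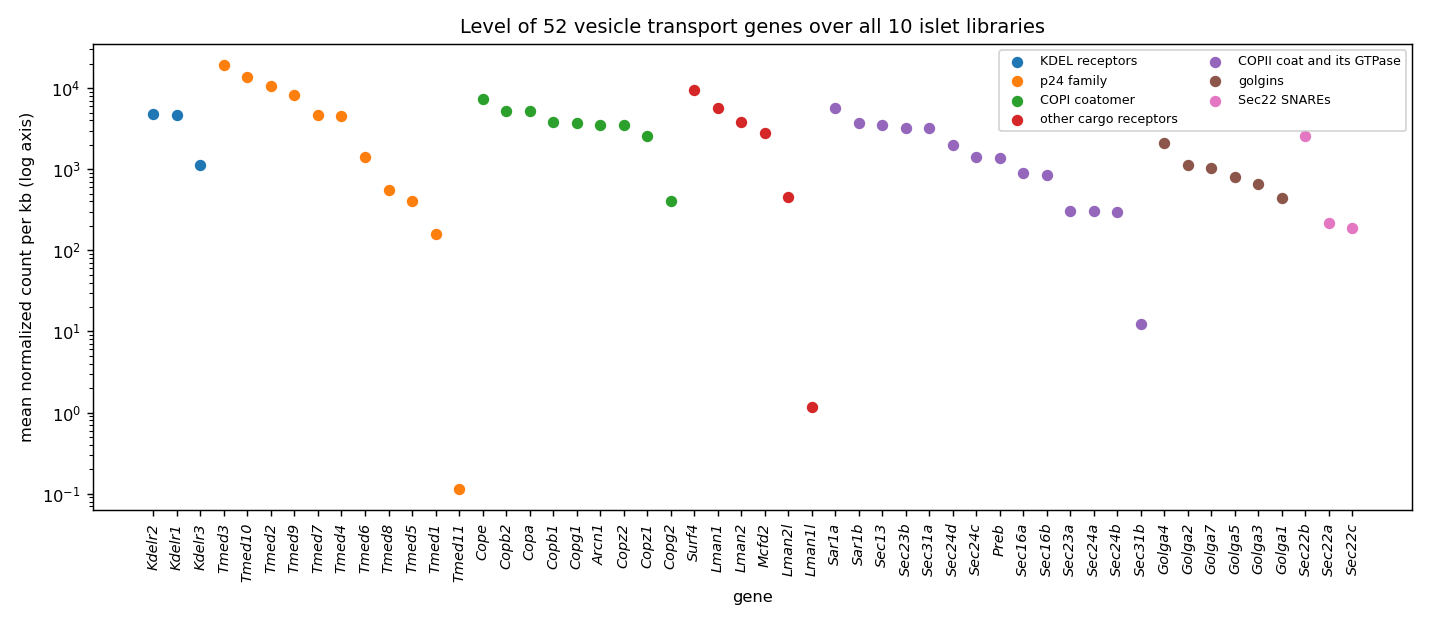
Mean normalized count per kb of the longest protein-coding transcript (log axis) for each of the 52 genes, ordered by role; each point is 1 gene, averaged over all 10 libraries of both strains, with no error available. *Tmed3* is the highest at 19178 per kb on this scale, though below *Surf4* with merged exons or by mean count, and *Sec31b*, *Lman1l* and *Tmed11* stand far below the others.

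An absolute PSI difference between the strains of over 0.1 was taken as the limit for an event. Of the 751 events, 37 passed it (4.93%), against 8.73% of all events in the table. They lay in 15 of the 50 genes (30%), compared with 44.0% of all genes with an event. The member shares thus lay below those of the whole table. Abundant genes had fewer such events in general. In genes with a mean count of 10000 or more, 4.30% of all events and 2.99% of the members' events passed, and from 1000 to 10000 the shares were 6.26% and 5.48%. From 100 to 1000 the order turned, with 10.2% of all events and 3 of the members' 18 (16.7%), and below 100 the members had 0 of 6. Of the 37 events 18 were lower and 19 higher in NZO islets, and among all events, 4.41% were lower and 4.32% higher.

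The events past the limit were spread unevenly over the event types. Tandem polyadenylation sites made up 28 of the 37 events, in 13 genes, which is 33.3% of the members' 84 such sites beside 29.4% of all in the table. Tandem transcription starts passed in 5 of 111 cases (4.50%), below the 23.3% of all such starts. Cassette exons passed in 2 of 505 cases (0.396%), compared with 1.48% of all cassette exons, and retained introns in 0 of 32, compared with 11.5% of all retained introns. The remaining 2 events were an alternative first exon and an alternative 5′ splice site. These shares by type were not matched for gene level. A mean PSI from 0.1 to 0.9 held for 28 of 111 starts, 46 of 84 polyadenylation sites and 2 of 32 introns. Events near 0 or 1 have less room to differ. PSI values of neighbouring tandem segments add up to about 1 within their set (within 0.02 in both strains in 60 of 74 sets). Each value is thus a share within the set, not of all transcripts of the gene, and a rise of one segment is tied to a fall of another. The mean start or end given below is the mean over such a set, weighted by PSI.

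**Figure D2:**
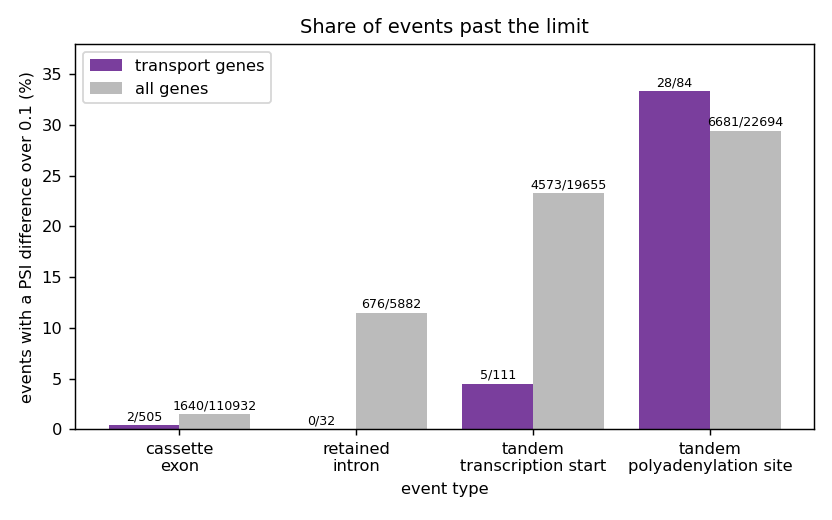
Percentage of events with an absolute PSI difference over 0.1 between NZO and B6-ob/ob islets, by event type, for the transport genes (violet) and all genes (grey); the numbers over the bars are events past the limit over all events of that type. The bars of the transport genes are lower for cassette exons, retained introns and tandem starts (4.50% against 23.3%), and near those of all genes for tandem polyadenylation sites (33.3% against 29.4%). The bars are not matched for gene level.

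**Figure D3:**
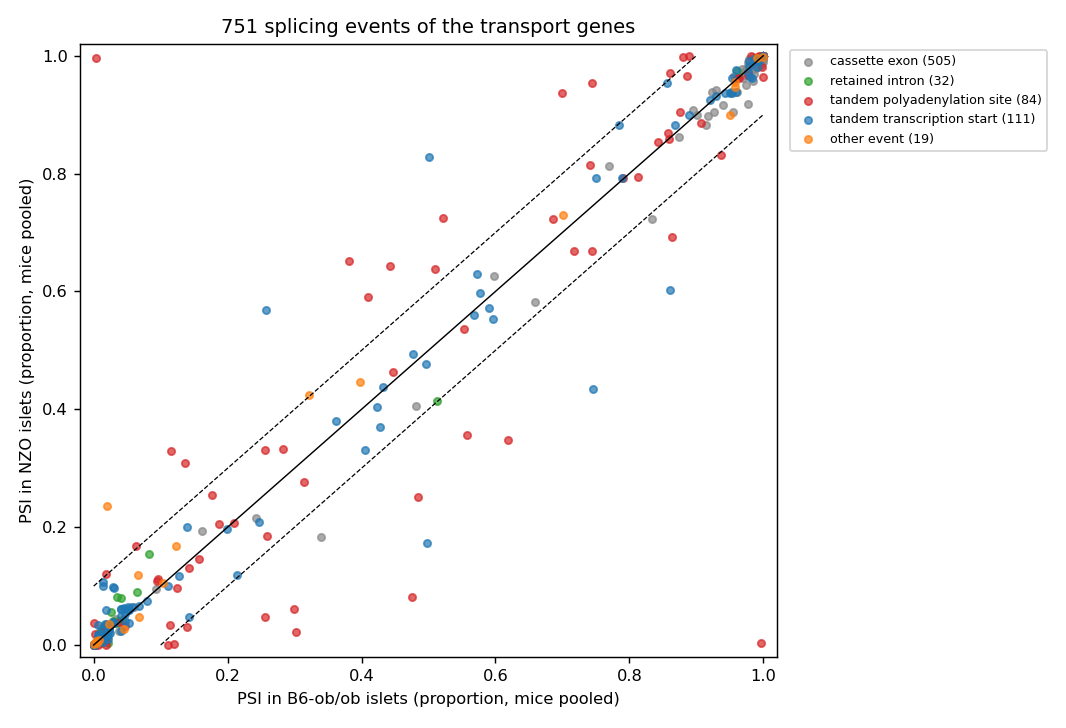
PSI of all 751 events in NZO islets (vertical axis, proportion) against B6-ob/ob islets (horizontal axis, proportion), 1 point per event coloured by type, the mice of a strain pooled. The solid line marks equal PSI and the dashed lines a difference of 0.1; 37 points lie beyond them, and the 2 in opposite corners are the neighbouring ends of *Golga5*.

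The tandem ends past the limit lay at short and at long distances from each other. In 7 of the 13 genes with such ends, the ends past the limit were under 20 nt apart, a share not given here for all genes. In the other 6 they were 100 nt or more apart, and in all 6 the downstream end had the higher PSI in NZO islets. In *Arcn1* these ends lie inside the gene. In all genes, 1684 sets of tandem ends had differing ends that far apart, and in 60.5% of them the mean end of the set lay further downstream in NZO islets. With 6 genes, and no test run, nothing particular to the transport genes is read from this count.

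The longest such distances were in *Sec22c* and *Arcn1*. The upstream end of *Sec22c* held a PSI of 0.0469 in NZO islets and 0.255 in B6-ob/ob. The end 2989 nt further on held 0.953 and 0.745. Both ends belong to protein-coding transcripts, and the downstream one was the main end of the set in both strains. The mean end lay 623 nt further downstream in NZO islets. *Sec22c* had a mean count of 1070 and its product is a SNARE-like protein of the ER.

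*Arcn1*, the δ-subunit of COPI, had a set of 2 ends inside the gene, 2956 nt apart, both of transcripts annotated as retained introns. The cassette exons after them had PSI of at least 0.998 in both strains, so the values concern only transcripts that end in this set. The upstream one held a PSI of 0.0619 in NZO islets and 0.300 in B6-ob/ob, and the downstream one 0.937 and 0.699, which moved the mean end within the set by 704 nt. Its starts differed as well. The start of the protein-coding transcript held 0.435 in NZO islets and 0.746 in B6-ob/ob, and the start 47 nt further in, annotated for transcripts with a retained intron, held 0.568 and 0.257.

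*Kdelr1* had the largest difference among these 6 genes. An end annotated for a transcript with a retained intron held 0.0814 in NZO islets and 0.475 in B6-ob/ob. The protein-coding ends downstream, 3 nt apart from each other, held 0.329 and 0.590 in NZO islets, and 0.115 and 0.410 in B6-ob/ob. The distal pair thus held most of the set in NZO islets, and the mean end moved by 149 nt. The other KDEL receptors, *Kdelr2* and *Kdelr3*, had no event past the limit.

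In the p24 family, *Tmed5* had protein-coding ends 1434 nt apart, and the proximal one held 0.00211 in NZO islets and 0.120 in B6-ob/ob. Its main start segment, of 18 nt, held 0.602 in NZO islets and 0.861 in B6-ob/ob, the rest being spread over 4 segments downstream that were each higher in NZO islets by 0.0121 to 0.0920. With tandem positions under 20 nt apart joined, no start of *Tmed5* passed the limit. *Tmed1*, a low member with a mean count of 222, held 0.251 in NZO islets and 0.484 in B6-ob/ob at its proximal end. Its next end, 310 nt downstream, held 0.637 and 0.510, and the protein-coding end 2 nt further 0.120 and 0.0186. The mean end moved by 169 nt in *Tmed5* and by 70.5 nt in *Tmed1*.

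*Sec16a* was just past the limit. Its proximal end, that of a processed transcript, held 0.000373 in NZO islets and 0.111 in B6-ob/ob, and the protein-coding end 858 nt downstream 0.9996 and 0.889. The proximal end was thus close to 0 in NZO islets, and the mean end moved by 94.9 nt.

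**Figure D4:**
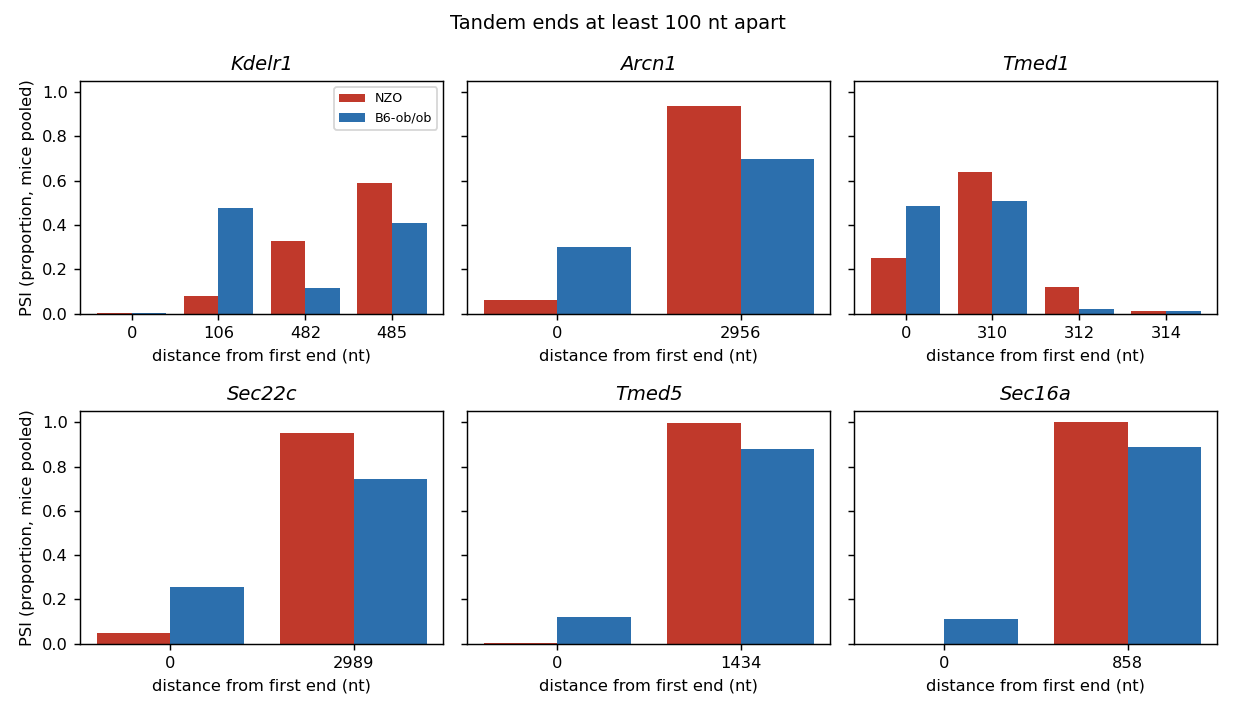
PSI (proportion, mice pooled) of each tandem end of the 6 genes whose differing ends were at least 100 nt apart, in NZO (red) and B6-ob/ob (blue) islets; the horizontal axis gives the distance in nt from the first end, downstream to the right, and is not to scale. In all 6 genes the leftmost end with a visible bar is lower in NZO islets, such as 0.0814 against 0.475 in *Kdelr1*.

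The largest difference of all 751 events was between neighbouring ends of *Golga5* (golgin-84), a tether of COPI vesicles. In NZO islets the proximal position held a PSI of 0.997 and the distal one 0.00334, whereas in B6-ob/ob islets the values were 0.00306 and 0.997. The positions are 2 nt apart, and each is the end of a protein-coding transcript in the annotation. The position to which most of the PSI was assigned thus differed between the strains by these 2 nt. Whether the transcripts end at different bases was not tested. With positions under 20 nt apart joined into 1 *Golga5* had no event past the limit.

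*Golga2* (GM130), which anchors tethers on the cis-Golgi, differed at both of its ends and within it. The start segment of 20 nt shown above held 0.173 in NZO islets and 0.498 in B6-ob/ob, and the segment after it, where a protein-coding transcript starts, 0.829 and 0.501. At the other end of the gene, the end of a transcript with a retained intron held 0.0216 and 0.302, and the protein-coding end 2 nt downstream 0.724 and 0.522. The mean start moved by 5.85 nt, compared with 14.6 nt in *Arcn1* and 8.93 nt in *Tmed5*, in each case downstream in NZO islets. The direction of start shifts over all genes was not computed, so nothing is read from this direction.

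In the other 5 genes with ends under 20 nt apart, the distance was 3 nt in *Cope* and *Sec16b*, 2 nt in *Sec24c*, 5 nt in *Sec24d* and 10 nt in *Tmed9*. The proximal end of *Cope* held 0.348 in NZO islets and 0.619 in B6-ob/ob. That of *Tmed9*, which cycles between ER and Golgi, held 0.692 and 0.864, and that of *Sec24d* 0.0299 and 0.139. In these 3 genes, as in *Golga2*, the proximal end was lower in NZO islets. It was higher in NZO islets in *Sec16b* (0.644 and 0.442), *Sec24c* (0.168 and 0.0634) and *Golga5*. With tandem positions under 20 nt apart joined into 1, 21 of the then 701 events passed the limit (2.996%, against 6.77% of all events), in 11 genes. Of these, 10 were among the 15 genes above, and *Golga7* was new, at a tandem start with 0.139 in NZO islets and 0.239 in B6-ob/ob. The 5 genes without an event were then *Cope*, *Golga5*, *Sec24c*, *Sec24d* and *Tmed9*, while the ends of *Golga2* and *Sec16b* no longer passed.

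*Sec16b* also differed in its first exon. The 78-nt alternative first exon, of which the beginning is shown above, held a PSI of 0.235 in NZO islets and 0.0196 in B6-ob/ob. The starts further upstream in the gene differed little, with 0.932 in NZO islets and 0.930 in B6-ob/ob at the main one.

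Exons inside the transport genes were mostly constitutive and alike in the strains. Of the 505 cassette exons, 488 had a mean PSI over 0.9, and none of these differed by more than 0.0593. The median absolute difference of the 505 exons was 0.00057, against 0.00581 over all cassette exons of the table. These medians were not matched for gene level, and most members were abundant genes. The share of all cassette exons with a mean PSI over 0.9 is not given here. Of the 505, 351 were lower in NZO islets (69.5%), close to the 72.0% of all cassette exons. Only 11 exons, in 7 genes, had a mean PSI between 0.1 and 0.9, and 9 of the 11 had a length divisible by 3. Of all 505 exons, 45.3% had such a length. The share among alternative exons of all genes was not computed, and the difference was not tested. The 9 include exons of *Sec31b*, a gene with a mean count of only 48.5. Their mean PSI ran from 0.868 to just under 0.9, near the upper bound of this range.

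The upstream 81-nt exon of *Golga2* had the largest difference of these exons. Its PSI was 0.184 in NZO islets and 0.340 in B6-ob/ob, so that it was skipped in most transcripts of both strains, and more so in NZO. The downstream 81-nt exon of the same gene was included in most transcripts of both, with 0.814 in NZO islets and 0.769 in B6-ob/ob. *Golga4* (golgin-245), a tether of the trans-Golgi, had both of its alternative exons lower in NZO islets. The 65-nt exon, with a stop codon of some transcripts, stood at 0.723 in NZO islets and 0.834 in B6-ob/ob, and the 84-nt exon, just under the limit, at 0.582 and 0.660.

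Alternative coding exons of the COPII coat lay under the limit. The 105-nt exon of *Sec24b*, a cargo adaptor, had a PSI of 0.405 in NZO islets and 0.481 in B6-ob/ob. The 39-nt exon of *Sec31a* had 0.626 in NZO islets and 0.598 in B6-ob/ob, and the acceptor of *Sec24a* that adds 3 nt 0.730 and 0.700. All 3 were thus present in both forms in both strains, with absolute differences of 0.0280 to 0.0764.

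**Figure D5:**
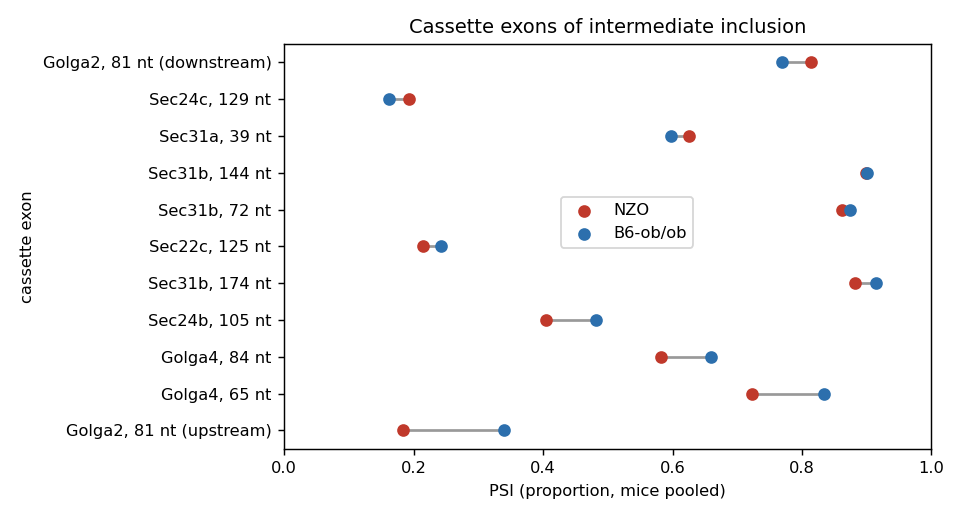
PSI (horizontal axis, proportion, mice pooled) of the 11 cassette exons with a mean PSI between 0.1 and 0.9, in NZO (red) and B6-ob/ob (blue) islets; the grey line joins the values of 1 exon, and the 2 exons of *Golga2* are named by their order in the gene. The upstream exon of *Golga2* (0.184 against 0.340) and the 65-nt exon of *Golga4* (0.723 against 0.834) are the 2 past the limit.

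Most measured introns of the transport genes had a low PSI. Of 32 measured introns 28 had a mean PSI under 0.1, and the share among all introns is not given here. An intron of *Golga1* of 424 nt was retained in most transcripts, with 0.974 in NZO islets and 0.960 in B6-ob/ob. In NZO islets 26 of the 32 were higher and 6 lower, and 64.2% of all introns in the table were higher. The largest difference ran the other way, in an intron of *Golga7* of 213 nt, with 0.414 in NZO islets and 0.513 in B6-ob/ob, just under the limit. Just over it was the alternative 5′ splice site of *Golga3*, a noncoding stretch of 127 nt, with 0.424 in NZO islets and 0.321 in B6-ob/ob.

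By role, the golgins and the COPII genes each had 9 events past the limit, of 142 and 253, in 4 genes each. The p24 family had 8 of 66 in 3 genes, COPI 6 of 199 in *Arcn1* and *Cope*, the KDEL receptors 3 of 18 in *Kdelr1*, and the Sec22 SNAREs 2 of 26 in *Sec22c*. The other cargo receptors had 0 of 47. Among the events of all genes, 8.73% passed the limit, with 29.4% of tandem polyadenylation sites but 1.48% of cassette exons. The mix of event types differed between the roles, and the events of the other cargo receptors were mostly cassette exons. The counts were not adjusted for event type, and a difference between roles was not tested. In total 35 of the 50 genes had no event past the limit, among them *Copa*, *Copb1*, *Copb2*, *Copg1*, *Sec13*, *Sec23a*, *Sec23b*, *Sar1a*, *Sar1b*, *Lman1*, *Surf4*, *Tmed2*, *Tmed3* and *Tmed10*.

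A list of 81 other genes of the route between ER and Golgi, such as ARF GTPases, TRAPP and COG tethering subunits and further SNAREs, was read in the same way. Of its 1191 events 71 passed the limit (5.96%), in 30 of the 80 genes with an event (37.5%), with 34 lower and 37 higher in NZO islets. Both shares lay between those of the members and the whole table. Tandem starts were 33 and tandem ends 32 of the 71 events. The largest differences per gene were at a tandem start of *Rint1* (0.123 in NZO islets and 0.885 in B6-ob/ob), a tethering factor, a tandem end of *Scfd1* (0.742 and 0.0620), which binds SNAREs, and a tandem start of *Trappc11* (0.893 and 0.278). *Stx18*, an ER SNARE, followed with 0.294 and 0.854 at a tandem start, and *Ergic3* with 0.849 and 0.323 at a tandem end.

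The promoters of the transport genes were read for letters of the ER stress response. Of the 52 members 44 matched the RefSeq table (GRCm38.p6) with 49 promoters, each from 250 bases before to 50 after a start. *Arcn1*, *Golga4*, *Golga7*, *Kdelr2*, *Lman1*, *Tmed2*, *Tmed7* and *Tmed11* have no entry. The motif CCACG, searched on both strands, occurred in 79.6% of the members' promoters, in 32.8% of all 32851 promoters and in 48.3% of the 5785 promoters of genes with a mean count of at least 1000. The longer TGACGTGG, which contains CCACG on its other strand, occurred in the promoters of 6 members, *Copb1*, *Copb2*, *Kdelr3*, *Sec16b*, *Sec23a* and *Sec24d*. That is 12.2% of their promoters, against 0.676% of all and 1.14% of those of genes at 1000 or more. CCAAT followed by 9 bases and CCACG, the full ER stress response element, was in 0 of the 49 and in 0.119% of all promoters. A match is a run of letters only, and whether any factor binds there was not measured.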

How the data were processed

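RNAseq libraries (paired-end, 125 bp) came from islets of 5 NZO and 5 B6-ob/ob mice, grouped by the strain in the labels. The labels name the pancreas as the source, and the study's methods isolated islets. Per the submitters' processing notes and the paper's methods, the authors used Salmon and DESeq2 for genes, Whippet for splicing, and mm10; versions are not given in the sources used here. For each gene the authors deposited a mean signal, the normalized count averaged over all libraries. For each splicing event they deposited, as a fraction, the PSI by strain with the mice pooled.

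Their 4 columns of comparisons (log2 fold change, adjusted p-value, ∆PSI and probability) and 2 sheets of selected genes and events were not used. PSI differences, NZO minus B6-ob/ob, were computed here, with no test, as values per mouse were not used and depth is unknown. Whippet's tandem segments were read by their outer edge. Genomic positions come from the deposited table (mm10), and exons and transcripts from GENCODE M21 (GRCm38). Python 3.11.15, pandas 2.3.3 and numpy 2.4.6 were used. The PSI differences, the limit, and the grouping and joining of tandem positions were tested on simulated data. The other calculations were not.

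Members, gene lists and limits were chosen with earlier results of these data known. Named are all events past the limit (up to 30 by size, in genes with a mean count of at least 100), the highest and lowest gene of each role, the paralog pairs, and members near the limit; others were chosen after their values were seen. Alternatives were other limits (0.05, 0.2), filters on level, mean PSI and length (10 nt), other event types, duplicates removed, another gene length, and another set of genes for the percentile. A mean count of 1000 and joining of tandem positions under 20 nt apart were added after seeing the data.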

Additional observations from a re-analysis of the deposited data

How the results depend on the processing

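The count of 37 events past a PSI difference of 0.1 went to 21 (9 genes instead of 15) at a limit of 0.2. That was 2.80% of the members' events, against 3.65% of all events. At a limit of 0.05 it was 63 events, 8.39% against 16.4%. With cassette exons, retained introns and alternative splice sites only, 3 events in 3 genes were left, of which 66.7% were lower in NZO islets, since tandem positions were dropped. Joining tandem positions under 20 nt apart, an alternative chosen after seeing the data, gave 21 events in 11 genes, 10 of them among the 15 and *Golga7* new. *Cope*, *Golga5*, *Sec24c*, *Sec24d* and *Tmed9* then had none, the largest difference of all (*Golga5*) included, and the start of *Tmed5* and the ends of *Golga2* and *Sec16b* no longer passed. A filter on mean PSI, on event length, on gene level (at least 100 or, added later, at least 1000) or on duplicate coordinates gave 29 to 37 events in 13 to 15 genes. In each of these settings the members' share of events past the limit lay below that of all events. The median level fell from 2328 to 1222 per kb with merged exons as the length, and the median percentile from 97.2 to 96.0 among genes with a mean of at least 10. PSI values were pooled over mice, so that no mouse could be left out. No paired analysis was possible because the files give pooled values.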
